A study of Mus musculus with 6 samples.

Results

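The genes described here are 10 subunits of the BAF complex, taken as a named list from 47643 gene identifiers: Actl6a, Actl6b, Smarca2, Smarca4, Ss18, Ss18l1, Phf10, Dpf1, Dpf3 and Arid1a. All 10 passed the filter on low counts. BAF is an ATP-dependent chromatin remodeller that slides and evicts nucleosomes at promoters and enhancers, and several of its positions are filled by alternative subunits. Its ATPase is either Smarca4 or Smarca2. In mouse neural development the progenitor form carries Actl6a, Ss18 and Phf10, and the form of postmitotic neurons carries Actl6b, Ss18l1 and Dpf1 or Dpf3 in their place.

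Total RNA was depleted of ribosomal RNA and sequenced in 2 groups of 3 libraries. The shUHRF1 group is embryonic dorsal root ganglion tissue (strain CD-1, day 13) treated with lentivirus carrying a Uhrf1 hairpin. The shControl group is the same tissue, strain and stage, treated with a control lentivirus. The series asks how transcription changes in uninjured neurons when UHRF1, a reader of hemimethylated DNA that helps to maintain DNA methylation, is knocked down. A single hairpin name is given per group, so effects of the hairpin and of the targeted gene cannot be told apart. Separate cultures are not named, so each p-value reflects the variation among the libraries, part or all of which could be technical.

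The libraries held 15599776 to 22382813 reads in genes. Uhrf1 itself had 2, 1 and 5 reads in the shUHRF1 libraries and 8, 6 and 5 reads in the shControl libraries, with overlapping counts and too few reads for the expression filter. A knockdown could therefore not be checked at this depth. Of all 15573 tested genes edgeR called 11.6% higher and 12.4% lower in shUHRF1, the background for the counts below. Of 16 markers of neurons and sensory neurons, edgeR called Tubb3 lower and none higher, with 5 at an unadjusted p below 0.05. At that threshold there were 5872 of all tested genes. With the replicate block 1 was higher and 3 were lower, where 2380 of all tested genes were higher and 2440 were lower. Their summed level was 21620 to 27497 CPM (read counts over TMM-scaled library sizes) in shUHRF1 and 26218 to 31712 CPM in shControl. Of 12 fibroblast markers, 10 passed the filter and those 10 rose, with sums of 90.5 to 210 CPM in shUHRF1 and 9.23 to 11.4 CPM in shControl. Of 12 markers of Schwann cells and satellite glia, 11 passed the filter, and of those 8 were higher and 1 was lower. Their sums overlapped, at 183 to 548 CPM in shUHRF1 and 457 to 537 CPM in shControl, whereas the average of log2(CPM + 1) over these markers was 2.76 to 3.47 in shUHRF1 and 2.25 to 2.38 in shControl. Of 10 macrophage markers 7 passed the filter, and of those 4 rose. Their sums were 16.3 to 40.5 CPM in shUHRF1 and 6.02 to 12.2 CPM in shControl. Of 8 endothelial and mural markers 6 passed the filter, and of those 2 rose. Their sums overlapped, at 40.3 to 57.2 CPM in shUHRF1 and 42.7 to 45.3 CPM in shControl. Of 14 markers of cycling progenitors 9 passed the filter, and of those only Nes was called, as higher. The sums overlapped at 22.1 to 34.1 CPM in shUHRF1 and 26.5 to 31.1 CPM in shControl. The filter on low counts keeps a gene with enough reads in either group alone. Fibroblast marker Lum passed through shUHRF1 only, with 2, 0 and 3 reads in shControl. So did glial marker Foxd3 (2, 0 and 2 reads in shControl) and macrophage marker Ptprc (1, 2 and 2). The shares of tested markers that rose are therefore partly set by the filter, whereas the sums cover all listed markers. No marker of any list was at 0 reads in all 6 libraries. In these bulk samples fewer cells of a type and less RNA per cell cannot be told apart.

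The sequences below are shown because the study concerns miR-9 and the repressor REST. In mouse neurons miR-9-3p, also written miR-9*, and miR-124 are known to repress Actl6a, and REST is known to repress the genes of these microRNAs outside neurons. The mature miR-9 strands, from RefSeq on GRCm38.p6, are printed 5′ to 3′ with the seed (bases 2 to 8) in capitals, and the pair has different seeds:
mmu-miR-9-3p: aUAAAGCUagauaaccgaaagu
mmu-miR-9-5p: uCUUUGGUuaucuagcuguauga

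The longest annotated 3′ UTR of each of the 10 genes was searched for the 7-base complement of each seed, AGCTTTA for miR-9-3p and ACCAAAG for miR-9-5p, on the transcript strand. Actl6a and Smarca2 held 1 miR-9-3p match each, and Arid1a held 1 miR-9-5p match. The other 7 genes held neither. A miR-9-3p match was present in 13.2% of 13260 tested genes with an annotated 3′ UTR and a miR-9-5p match in 14.3%. The matches are printed on the transcript strand from GENCODE M21 transcripts (GRCm38), with the complement of the seed in capitals. The Actl6a site starts at base 38 of a 371-base 3′ UTR, the Smarca2 site at base 132 of 952 and the Arid1a site at base 272 of 1323:
Actl6a, miR-9-3p, chr3:32726625-32726648, plus strand: cacctcaacgtctgtAGCTTTAgt
Smarca2, miR-9-3p, chr19:26777487-26777510, plus strand: ttgtcatctagaactAGCTTTAgg
Arid1a, miR-9-5p, chr4:133680051-133680074, minus strand: gacttttttattttaACCAAAGtt

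RefSeq promoters (250 bases before to 50 after the start, GRCm38.p6) were matched for 9 of the 10 genes. They were searched on both strands for CAGCACC and GGACAG, the 2 motifs of the REST-binding element. Actl6b was the 1 member whose promoter held both, in the order and on the strand of the element, with 9 bases between them, from 23 to 44 bases after the start. CAGCACC occurred in 7.1% and GGACAG in 22.2% of 32851 promoters. Both occurred in 1.73%, and in that order with at most 20 bases between them in 0.131%. Every gap up to that limit was counted, so neither this share nor the Actl6b match was held to the spacing of the element. A GGACAG match also lay in 1 of the 2 Arid1a promoters, and the promoters of the other 7 members held neither. The Actl6b promoter is shown with the complements of the 2 motifs in capitals, because its gene is the member that fell:
Actl6b, chr5:137553296-137553595, plus strand: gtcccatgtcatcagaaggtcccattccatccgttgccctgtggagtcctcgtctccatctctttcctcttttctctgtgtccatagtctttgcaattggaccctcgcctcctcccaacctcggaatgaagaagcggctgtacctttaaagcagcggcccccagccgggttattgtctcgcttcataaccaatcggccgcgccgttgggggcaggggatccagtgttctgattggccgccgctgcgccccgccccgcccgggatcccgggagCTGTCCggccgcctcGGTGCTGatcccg

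CpG is the dinucleotide that UHRF1 reads in its hemimethylated form. The member promoters held from 17 CpG in Dpf3 to 62 in Phf10, and the median over all 32851 promoters, including those of genes not tested here, was 7. Dpf3 held more than 68.6% of all promoters, Actl6a (21 CpG) more than 75.2%, Actl6b (23 CpG) more than 78.5% and Smarca2 (29 CpG) more than 87.1%. A match to these letters is a description of sequence, and neither binding nor methylation was measured in these libraries.

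With the hairpin against Uhrf1, Actl6b, the actin-like subunit of the neuronal complex, fell, and Smarca2, the ATPase that is the alternative to Smarca4, rose. The other 8 subunits did not pass the test. Thus 1 of 10 members was higher, where 11.6% of all 15573 tested genes were higher, and 1 of 10 was lower, where 12.4% were lower. In either direction 2 of 10 members were called, and 24.0% of all tested genes were. The members' share was therefore near the background of this comparison. The groups did not overlap for 4 of 10 members (Actl6b, Smarca2, Ss18 and Ss18l1), and they did not overlap for 44.0% of all tested genes. The median log2 fold change of the 10 members was 0.14, beside 0.02 for all tested genes.

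**Figure D1:**
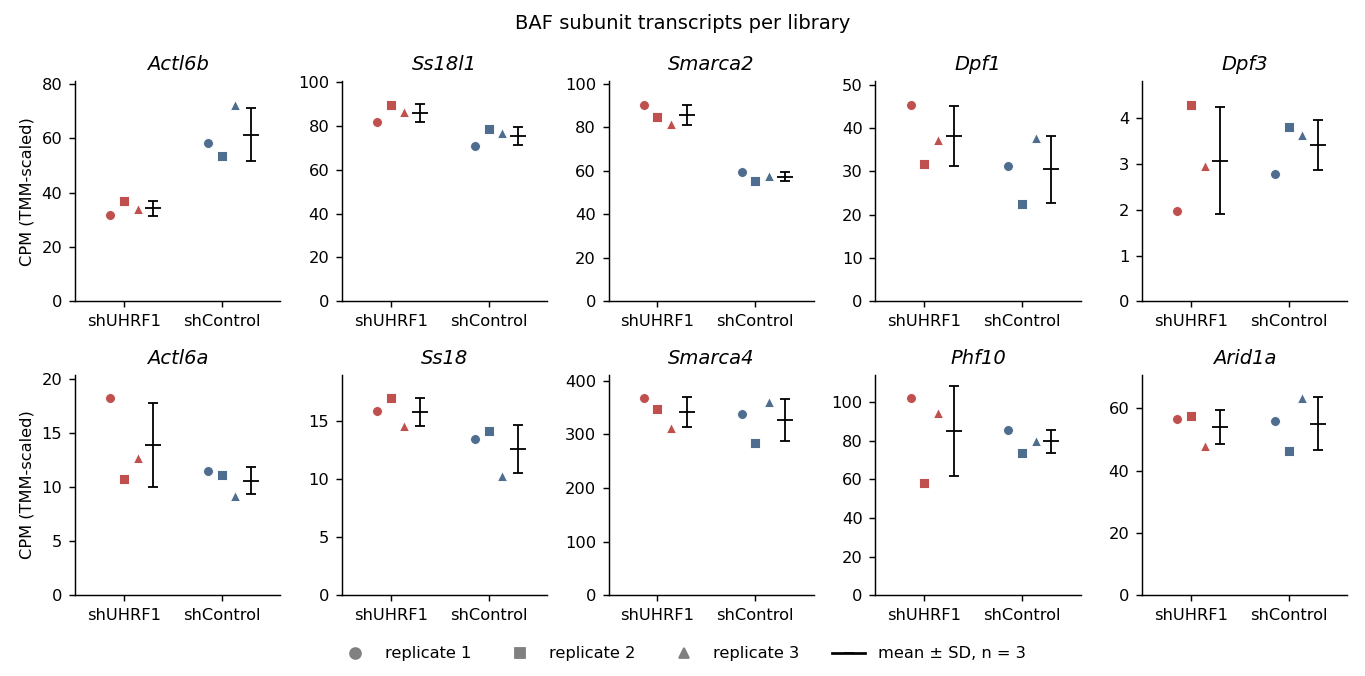
Levels of the 10 BAF subunit transcripts in CPM (TMM-scaled, vertical axes from 0) in the shUHRF1 and shControl libraries, with each point a library shaped by its replicate number and bars showing the mean ± SD of 3 libraries. The shUHRF1 points of Actl6b lie between 31.6 and 37.0 CPM, below all shControl points, and those of Smarca2 between 81.5 and 90.3 CPM, above all shControl points.

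Actl6b (ENSMUSG00000029712.14, chr5:137553517-137569582, plus strand), which encodes the neuron-specific BAF53b needed for dendrite outgrowth in mouse neurons, had 31.6, 37.0 and 34.1 CPM in shUHRF1 and 58.2, 53.6 and 72.4 CPM in shControl. All 3 shUHRF1 libraries lay below all 3 shControl libraries. The means were 34.3 ± 2.74 CPM in shUHRF1 and 61.4 ± 9.77 CPM in shControl (SD, n = 3 each). The log2 fold change was -0.84 (SE 0.14, edgeR adjusted p = 0.00594). It was called in each of the 15 alternative fits, the one nearest to 0 at -0.71. Its exons overlap no other annotated gene.

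Actl6a (ENSMUSG00000027671.14, chr3:32706298-32726973, plus strand), the actin-like subunit of progenitors and of most non-neuronal cells, had 18.2, 10.7 and 12.7 CPM in shUHRF1 and 11.5, 11.1 and 9.14 CPM in shControl. One shUHRF1 library, replicate 1, stood above the rest, and replicate 2 lay within the shControl range. The log2 fold change of 0.40 ± 0.22 (SE) did not pass (edgeR adjusted p = 0.236), and without shUHRF1 replicate 1 it was 0.15. Exons of Mrpl47 on the opposite strand cover 11.63% of the annotated exons of Actl6a. With no strand setting stated, it is not known whether reads there were counted for Actl6a, for Mrpl47 or as ambiguous.

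Per length, in TPM (counts over the union of exons, scaled to the same sum in each library), Actl6b made up 61.2%, 75.9% and 70.9% of the summed Actl6a and Actl6b level in shUHRF1. It made up 82.2%, 81.5% and 87.8% in shControl. The groups did not overlap, and Actl6b was the larger of the pair in every library. As a log2 ratio of Actl6b over Actl6a the means were 1.20 ± 0.50 in shUHRF1 and 2.40 ± 0.39 in shControl (SD, n = 3 each), a difference of -1.20. No p is given for ratios of members, which were chosen with results known. Fibroblast markers, whose cells carry Actl6a rather than Actl6b, were higher in the same shUHRF1 libraries, as given above. So were 8 glial, 4 macrophage and 2 endothelial and mural markers, while 1 glial marker was lower. The part of these markers in this ratio was not tested.

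**Figure D2:**
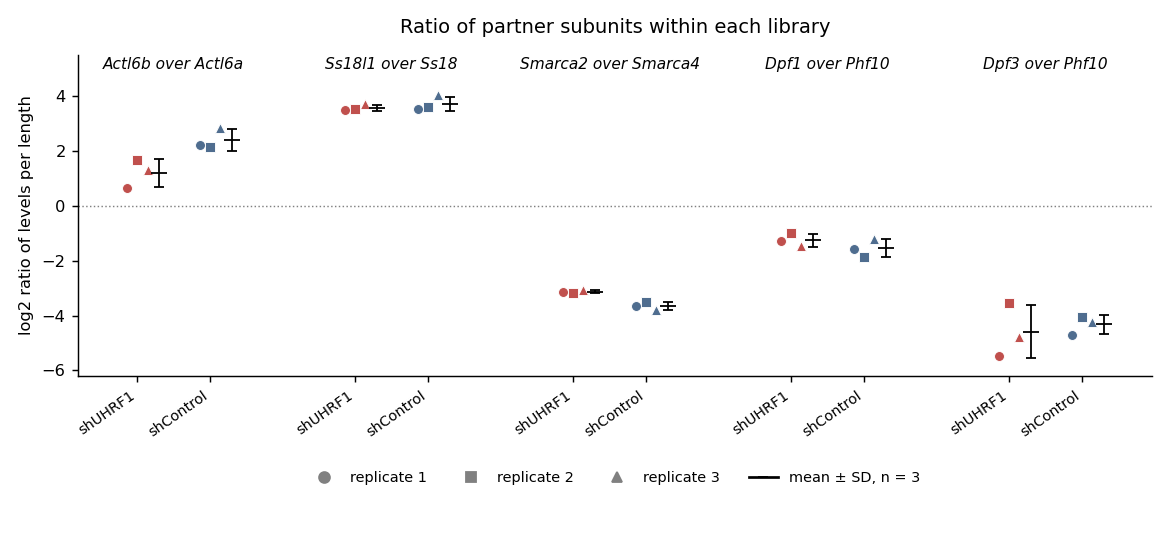
Log2 ratio of the levels per length of 5 pairs of alternative subunits (vertical axis; 0 means equal levels), in each shUHRF1 and shControl library, with bars for the mean ± SD of 3 libraries. Actl6b over Actl6a is lower in all shUHRF1 libraries (0.66 to 1.65) than in all shControl libraries (2.14 to 2.85), Smarca2 over Smarca4 is higher (-3.18 to -3.07 against -3.79 to -3.51), and the other 3 pairs overlap.

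Smarca2 (ENSMUSG00000024921.17, chr19:26605050-26778322, plus strand), the BRM ATPase, had 90.3, 84.8 and 81.5 CPM in shUHRF1 and 59.4, 55.1 and 57.4 CPM in shControl. The groups were tight and far apart, with means of 85.5 ± 4.46 CPM in shUHRF1 and 57.3 ± 2.16 CPM in shControl (SD, n = 3 each). The log2 fold change was 0.58 (SE 0.10, edgeR adjusted p = 0.00677). All 15 alternative fits called it, at 0.53 to 0.70. Fibroblast markers and 8 glial, 4 macrophage and 2 endothelial and mural markers were higher in the same libraries. Their part was not tested here either. Among the 11 tested glial markers Mbp was lower.

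Smarca4 (ENSMUSG00000032187.16, chr9:21616169-21704230, plus strand), the BRG1 ATPase that is required in neural progenitors, was the most abundant member in both groups. It had 367, 348 and 311 CPM in shUHRF1 and 338, 284 and 360 CPM in shControl, which overlapped. Its log2 fold change was 0.06 ± 0.13 (SE, edgeR adjusted p = 0.768). Smarca2 made up 9.95% to 10.6% of the summed level of the 2 ATPases per length in shUHRF1, and 6.75% to 8.09% in shControl. Smarca2 was the minor ATPase in every library, and the groups did not overlap. The shares depend on the length used, since the union of Smarca2 exons is 14269 bases and its longest transcript 5921 bases. With the longest transcript of each gene the mean shares were 21.2% in shUHRF1 and 15.9% in shControl.

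Ss18l1 (ENSMUSG00000039086.9, chr2:180042509-180070201, plus strand) encodes CREST, a calcium-responsive coactivator of the neuronal complex. It had 81.6, 89.6 and 86.2 CPM in shUHRF1 and 70.7, 78.3 and 76.8 CPM in shControl. The groups did not overlap, but the log2 fold change of 0.19 ± 0.10 (SE) did not pass (edgeR adjusted p = 0.222). Its progenitor counterpart Ss18 (ENSMUSG00000037013.15, chr18:14624198-14682914, minus strand) had 15.8, 16.9 and 14.5 CPM in shUHRF1 and 13.4, 14.1 and 10.2 CPM in shControl. These groups did not overlap either, and the log2 fold change was 0.32 ± 0.17 (SE, edgeR adjusted p = 0.206). Per length Ss18l1 held 92.2 ± 0.529% of the pair in shUHRF1 and 92.8 ± 1.20% in shControl (SD, n = 3 each). The neuronal partner was the more abundant in every library, and the shares of the groups overlapped.

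Phf10 (ENSMUSG00000023883.13, chr17:14945009-14961273, minus strand), the PHD-finger subunit of progenitors, had 102, 58.4 and 94.6 CPM in shUHRF1 and 85.4, 73.8 and 79.9 CPM in shControl. The shUHRF1 libraries were spread on both sides of the shControl range, and the log2 fold change was 0.10 ± 0.20 (SE, edgeR adjusted p = 0.772). Exons of 1600012H06Rik on the opposite strand cover 9.56% of its exons, so its counts carry the same uncertainty as those of Actl6a.

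Dpf1 (ENSMUSG00000030584.14, chr7:29303951-29318243, plus strand), a neuronal replacement for Phf10, had 45.4, 31.7 and 37.3 CPM in shUHRF1 and 31.2, 22.4 and 37.8 CPM in shControl. Replicate 2 was the lowest library of each group, and the groups overlapped. The log2 fold change of 0.32 ± 0.21 (SE) did not pass (edgeR adjusted p = 0.314), nor with the replicate number as a block (adjusted p = 0.120). Dpf3 (ENSMUSG00000021221.15, chr12:83213745-83487716, minus strand), the other neuronal replacement, was the least abundant member per length. It had 44, 73 and 61 reads in shUHRF1 and 48, 59 and 76 reads in shControl. These correspond to 1.98, 4.30 and 2.95 CPM in shUHRF1 and 2.79, 3.82 and 3.64 CPM in shControl. The shUHRF1 libraries lay on both sides of the shControl range, and the log2 fold change of -0.16 ± 0.32 (SE) did not pass (edgeR adjusted p = 0.767). Per length Phf10 exceeded Dpf1 in all 6 libraries, with mean log2 ratios of Dpf1 over Phf10 of -1.26 ± 0.23 in shUHRF1 and -1.55 ± 0.32 in shControl (SD, n = 3 each). Among Phf10, Dpf1 and Dpf3 the progenitor subunit was the most abundant transcript, and the ratios of Dpf1 over Phf10 overlapped between the groups. Their paralog Dpf2, at mean levels of 17.8 TPM in shUHRF1 and 26.6 TPM in shControl, is not in these ratios.

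Arid1a (ENSMUSG00000007880.16, chr4:133679008-133756769, minus strand), the large DNA-binding subunit of canonical BAF, had 56.7, 57.6 and 47.8 CPM in shUHRF1 and 55.8, 46.4 and 63.2 CPM in shControl. The groups overlapped, at a log2 fold change of -0.03 ± 0.15 (SE, edgeR adjusted p = 0.904).

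Ordered by mean TPM, a level per length, Smarca4 came first in both groups, at 195 to 231 TPM in shUHRF1 and 170 to 207 TPM in shControl. Ss18l1 (76.7 to 86.0 TPM in shUHRF1, 59.6 to 69.7 TPM in shControl) and Phf10 (49.5 to 85.1 TPM in shUHRF1, 58.0 to 63.6 TPM in shControl) followed, and overlapped each other in both groups. Actl6b was the fourth, at 30.2 to 36.2 TPM in shUHRF1 and 48.5 to 63.1 TPM in shControl, where it overlapped Phf10. Dpf1 was the fifth, at 24.6 to 34.5 TPM in shUHRF1 and 16.1 to 26.2 TPM in shControl. It overlapped Actl6b and Smarca2 in shUHRF1 and Arid1a in shControl. Smarca2 stood above Arid1a in shUHRF1 (23.2 to 25.8 TPM against 16.9 to 20.9 TPM) and below it in shControl (14.9 to 15.2 TPM against 15.6 to 20.5 TPM). With the longest transcript as length, an alternative added after the data were seen, Smarca2 stood above Arid1a in both groups (43.9 to 49.2 against 18.6 to 23.1 TPM in shUHRF1, 28.3 to 29.0 against 17.2 to 22.6 TPM in shControl). Actl6a had 11.5 to 19.1 TPM in shUHRF1, where it overlapped Arid1a, and 8.75 to 11.0 TPM in shControl. Ss18 had 6.24 to 7.48 TPM in shUHRF1 and 4.04 to 5.79 TPM in shControl, and Dpf3 was the lowest at 1.91 to 4.24 TPM in shUHRF1 and 2.42 to 3.49 TPM in shControl. Smarca4 kept the top place, and Ss18 and Dpf3 the lowest places, with either length, whereas members between them changed places.

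The genes whose levels ran most like those of Actl6b over the 6 libraries, by Pearson correlation of log2(CPM + 1) among 9113 protein-coding genes averaging 10 CPM or more, were Pygo2 (r = 0.9970), Hivep1 (r = 0.9962) and Gnaz (r = 0.9954). Gnaz, a G protein alpha subunit gene, had 137, 155 and 152 CPM in shUHRF1 and 236, 208 and 268 CPM in shControl. Those most like Actl6a were Eif4a1 (r = 0.9944), Adipor2 (r = 0.9922) and Lsg1 (r = 0.9898). All points share the 6 libraries and their 2 groups, so these correlations only describe the pattern.

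The rest of the complex was described from a list of 21 other subunits of BAF and of PBAF, the related complex that contains Pbrm1, Arid2, Brd7 and Phf10. All 21 were tested, and 6 rose, 4 fell and 11 were not called, where 11.6% of all tested genes were higher and 12.4% were lower. The median log2 fold change was -0.01, beside 0.02 for all tested genes. Smarcc1 (BAF155), a core scaffold subunit, had 189, 126 and 153 CPM in shUHRF1 and 84.5, 65.8 and 89.9 CPM in shControl (log2 fold change 0.96 ± 0.18, SE, edgeR adjusted p = 0.00832). Its paralog Smarcc2 was at -0.01 ± 0.15 (SE, edgeR adjusted p = 0.964). Bcl7c had 59.1, 46.0 and 57.7 CPM in shUHRF1 and 28.2, 21.7 and 29.1 CPM in shControl, and its paralog Bcl7b had 10.2, 9.66 and 7.31 CPM in shUHRF1 and 20.6, 16.1 and 16.5 CPM in shControl. Thus Bcl7c rose and Bcl7b fell, at 1.04 ± 0.16 and -0.97 ± 0.19 (log2, SE; edgeR adjusted p = 0.00401 and 0.00946), while Bcl7a was at -0.15 ± 0.15 and was not called.

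Dpf2, the paralog of Dpf1 and Dpf3 that most cell types use, fell. It had 33.3, 25.7 and 25.4 CPM in shUHRF1 and 44.3, 45.3 and 48.7 CPM in shControl, a log2 fold change of -0.71 ± 0.14 (SE, edgeR adjusted p = 0.0100). Smarcd3 was called lower at -0.71 ± 0.19 (SE, edgeR adjusted p = 0.0298). Exons of Chpf2 on the opposite strand cover 48.16% of the Smarcd3 exons, so that value is uncertain. Bcl11b and Arid1b, at -0.32 ± 0.25 and -0.38 ± 0.14 (log2, SE), were not called (edgeR adjusted p = 0.410 and 0.0870). Bcl11a, the paralog of Bcl11b, had 59.9, 57.9 and 54.8 CPM in shUHRF1 and 40.1, 30.6 and 39.0 CPM in shControl, and was called higher at 0.65 ± 0.13 (log2, SE, edgeR adjusted p = 0.0114). The other called subunits were Bicral, Arid2 and Pbrm1, all higher, and Smarce1, lower. These and Bcl11a are named after their values were seen. Exons of Gm26904 on the opposite strand cover 11.27% of the Bicral exons, so its counts are uncertain as well. Smarcc1, Dpf2, Bcl7b, Bcl7c and Bcl11a were called in each of the 15 alternative fits. The call of Smarce1 held in 12 of them, that of Bicral in 11, that of Smarcd3 in 9, and those of Arid2 and Pbrm1 in 7. The count of 10 called subunits was 5 when either replicate 1 or replicate 3 of shControl was left out, and 6 when replicate 3 of shUHRF1 was. With upper-quartile factors 8 rose and 3 fell, where 2512 of all 15573 tested genes were higher and 1378 were lower.

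**Figure D3:**
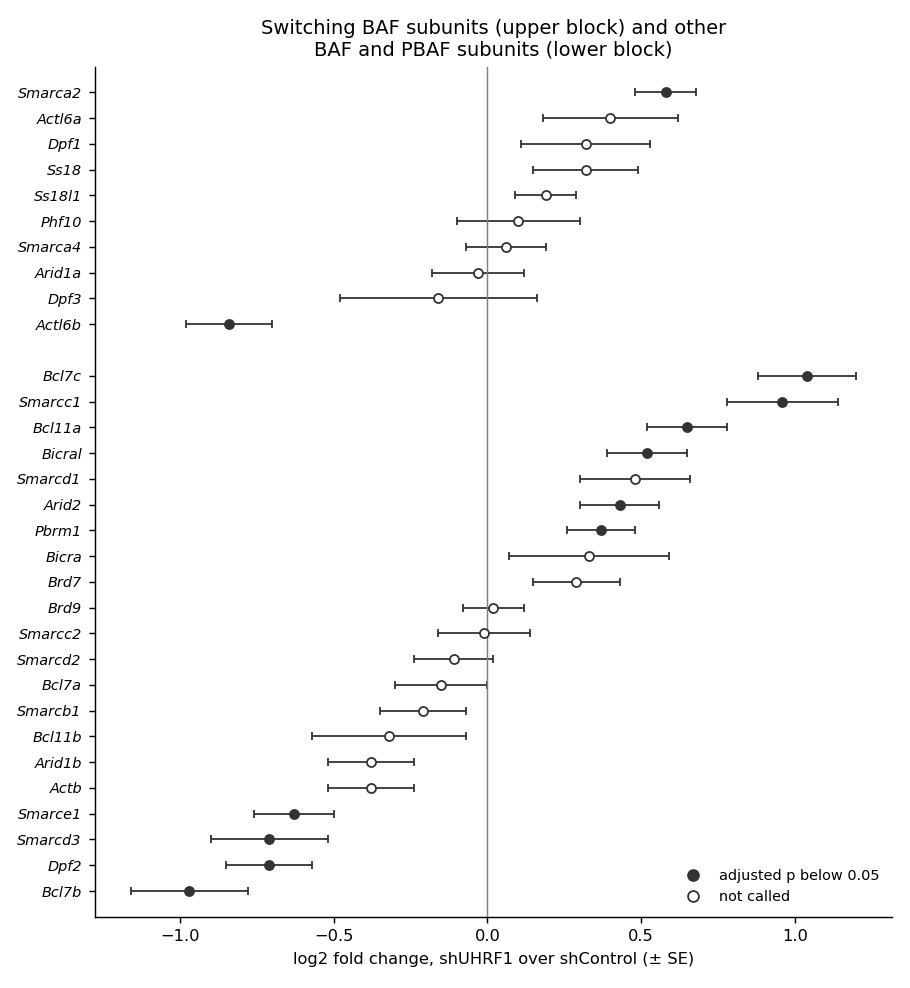
Log2 fold change (shUHRF1 over shControl) with its SE for the 10 switching BAF subunits and, below them, 21 other BAF and PBAF subunits, with filled points for an edgeR adjusted p below 0.05. Among the switching subunits Smarca2 at 0.58 and Actl6b at -0.84 are filled, and the other subunits run from Bcl7c at 1.04 to Bcl7b at -0.97.

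Among 25 genes of other chromatin remodellers (the CHD, ISWI and INO80 families and related ATPases), 3 rose, none fell and 22 were not called by edgeR, where 11.6% of all tested genes were higher and 12.4% were lower. The median log2 fold change was 0.11, beside 0.02 for all tested genes. At an unadjusted p below 0.05 the number was 8 of 25, and 5872 of all 15573 tested genes. Cecr2, a bromodomain partner of ISWI ATPases, had 20.8, 15.8 and 16.1 CPM in shUHRF1 and 3.66, 3.69 and 3.73 CPM in shControl, a log2 fold change of 2.25 ± 0.18 (SE, edgeR adjusted p = 0.000525). Chd7 and Chd1 rose by 0.99 ± 0.24 and 0.54 ± 0.15 (log2, SE; edgeR adjusted p = 0.0220 and 0.0352). Cecr2 was the 1 gene of the 3 still called when replicate 1 or 3 of shControl, or replicate 3 of shUHRF1, was left out. With the replicate block 5 rose and 1 fell, where 2380 of all 15573 tested genes were higher and 2440 were lower. With upper-quartile factors 7 rose, where 2512 of all tested genes were higher and 1378 were lower.

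A list of 8 genes tied to the switch or to the neuronal complex held Rest, Rcor1, Crebbp, Ep300, Ngef, Rap1a, Gap43 and Stmn2. Of these 1 rose and 1 fell, where 11.6% of all tested genes were higher and 12.4% were lower. The list's share of called genes was therefore near the background. At an unadjusted p below 0.05 the number was 5 of 8, and 5872 of all 15573 tested genes. The groups did not overlap for 5 of 8, and for 44.0% of all tested genes. With upper-quartile factors Rest, Rcor1 and Ep300 rose and Gap43 fell, where 2512 of all tested genes were higher and 1378 were lower. With the replicate block Rap1a fell too, where 2440 of all 15573 tested genes were lower. Rest, a repressor of neuronal genes that is active in non-neuronal cells, had 6.60, 3.12 and 5.86 CPM in shUHRF1 and 0.639, 1.10 and 1.10 CPM in shControl (log2 fold change 2.45 ± 0.38, SE, edgeR adjusted p = 0.00414). Fibroblast markers and 8 glial, 4 macrophage and 2 endothelial and mural markers were higher in the same libraries. Their part in the level of Rest was not tested. Among the 11 tested glial markers Mbp was lower, at -0.95 ± 0.23 (log2, SE, edgeR adjusted p = 0.0217). Gap43, a growth cone gene reported to depend on the neuronal complex in mouse neurons, had 315, 585 and 552 CPM in shUHRF1 and 1705, 1678 and 1928 CPM in shControl, a log2 fold change of -1.87 ± 0.23 (SE, edgeR adjusted p = 0.00181). Stmn2, reported alongside it, was at -0.01 ± 0.21 (SE, edgeR adjusted p = 0.979). The coactivator genes Crebbp and Ep300 had log2 fold changes of -0.13 and 0.34 and were not called.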

How the data were processed

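The authors deposited whole-number read counts per gene for each library, with 5 summary lines. The submitters' processing notes name FastQC, STAR, HTSeq, DESeq2 and mm10. Versions, settings and strandedness of counting: not given in the sources used here. Summary lines, which name no gene, were left out of library sizes (8.43% to 17.18% of entries outside annotated genes, 2.12% to 2.27% ambiguous, 30.5% to 37.28% not unique). Symbols, coordinates and exons came from GENCODE M21 on GRCm38, and 47224 of 47643 identifiers matched.

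From the counts, edgeR 4.0.16 in R 4.3.3 (filterByExpr, TMM, two-sided quasi-likelihood F test, Benjamini-Hochberg over 15573 genes, called below 0.05, no block) compared the groups. The fit was tested on simulated data. SEs of log2 fold changes came from the F statistic. Ratios of partners used counts per length with 0.5 reads added.

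The members and all lists were chosen with earlier results of these data known. Every member was described, with up to 4 called genes of each other list by smallest unadjusted p and a few always (Rest, Uhrf1, Bcl11b, Smarcd3, Arid1b, Dpf2). miR-124 was not analysed here.

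Same-numbered libraries deviated together, with correlations of 0.32, 0.40 and 0.40 between deviations from group means. What same-numbered libraries share is not stated, so the pairing comes from the data. Alternatives were DESeq2 1.42.0, limma-voom 3.58.1, RLE and upper-quartile factors, 2 other low-count filters, the replicate block, pairs 1 and 3 only, leaving out mitochondrial and small RNA genes, and each library left out.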

Additional observations from a re-analysis of the deposited data

How the results depend on the processing

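The number of called members was 2 in the main fit and in all 15 alternatives, Actl6b and Smarca2 each time. With the replicate block their log2 fold changes were -0.84 and 0.58, and the block changed no member's call. Directions of uncalled members turned for Smarca4 (-0.05 without shControl replicate 2 and -0.05 on library pairs 1 and 3), Phf10 (-0.06 without shUHRF1 replicate 1), Dpf3 (0.08 without shUHRF1 replicate 1) and Arid1a (0.10 with upper-quartile factors, 0.02 with at least 2 CPM in 3 libraries, 0.04 without shUHRF1 replicate 3 and 0.07 without shControl replicate 3). The cause was not tested. Over fits with 1 library left out Smarca4 ran from -0.05 to 0.13, Phf10 from -0.06 to 0.28, Dpf3 from -0.49 to 0.08 and Arid1a from -0.16 to 0.07. With upper-quartile factors the median over the 15573 tested genes was 0.142 (log2), against 0.017 in the main fit. The medians with DESeq2 (0.122) and without a filter (0.110) ran over 31421 genes, a different set.

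Over fits with 1 library left out, all called genes numbered 1768 to 3888, the other BAF and PBAF subunits 5 to 8 and the other remodellers 1 to 5. All called genes with upper-quartile factors split into 2512 higher and 1378 lower, against 1807 and 1928. Other remodellers numbered 7 with upper-quartile factors, 6 with the stricter filter and 6 with the replicate block. In these fits all called genes numbered 3890 of 15573, 3370 of 12387 and 4820 of 15573 tested.

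With the longest transcript as length, mean log2 ratios in shUHRF1 and shControl were 0.71 and 1.91 for Actl6b over Actl6a, 2.38 and 2.53 for Ss18l1 over Ss18, -1.89 and -2.40 for Smarca2 over Smarca4, and -0.84 and -1.12 for Dpf1 over Phf10. Dpf3 had the fewest reads of the members, 44 to 76 per library, and the widest SE.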
